A study of Homo sapiens with 4 samples.

Results

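The genes described here are Wnt target and feedback genes of gut epithelium together with CTNNB1, the gene of beta-catenin, as measured in AGS, a long-established cell line from a human gastric adenocarcinoma. A total of 10 genes were chosen by name, with the falls of LGR5, AXIN2 and TNFRSF19 in these data already known. They were LGR5, AXIN2, TNFRSF19, RNF43, ZNRF3, NKD1, TCF7, LEF1, ASCL2 and CTNNB1. Of these, 9 were found, each with 1 transcript cluster (a set of probes that covers 1 transcript locus) that the array annotation assigns to a single symbol, among 21214 named clusters. TCF7 had no such cluster in the annotation table and was not analysed here. The cells were given either ornithogalum, a homeopathic preparation, at 0.01% or ethanol as the vehicle, each for 36 h. Each group held 2 biological replicates, each on its own Affymetrix Human Gene 1.0 ST array. All 4 arrays come from the same line, which is a cancer cell line and not normal gastric epithelium. The labels do not say whether the replicates came from separate cultures or days, so the p-values measure the spread between these arrays only.

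Wnt ligands bind Frizzled receptors and LRP co-receptors and thereby stop a destruction complex from marking beta-catenin for degradation. Stabilised beta-catenin enters the nucleus and joins TCF and LEF proteins on DNA to switch on target genes, several of which encode brakes on the same pathway. In the gut this programme maintains the stem cells at the base of crypts and glands, and LGR5 marks those cells in the intestine and in gastric glands. The AGS line is known to carry an activating CTNNB1 mutation, so its beta-catenin signalling does not depend wholly on Wnt ligands.

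Values are log2 expression values per array as deposited, and a difference is the ornithogalum mean minus the vehicle mean on that scale. "Fell" and "rose" are used where limma's Benjamini-Hochberg adjusted p over all 21214 named clusters was under 0.05. Of the 9 measured genes 5 fell, namely LGR5, TNFRSF19, AXIN2, NKD1 and CTNNB1, and 0 rose; the same 5 were those with an unadjusted limma p under 0.05, which 33.8% of all named clusters had. Among all named clusters 19.2% passed in either direction, 12.6% as lower and 6.57% as higher. The median difference was -0.49 over the 9 genes and 0.04 over all named clusters. Only 2 of the 9 genes had a mean value under 4.64, the median level of named clusters. Of the 10607 named clusters at or above that level, fitted and adjusted alone, 3021 passed as lower and 1811 as higher. The median difference of those brighter clusters was -0.07. In 6 of the 9 genes both ornithogalum arrays lay below both vehicle arrays, against 30.2% of all named clusters. Arrays of the 2 groups did not overlap, in either direction, in 62.2% of clusters. The falls of LGR5, AXIN2 and TNFRSF19 were known when the genes were chosen. The comparisons with all named clusters are thus not independent of that choice.

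The median over the named clusters was 4.48 and 4.62 with ornithogalum and 4.71 and 4.70 with vehicle. Pearson's r across clusters, which are not independent replicates, was 0.981 between the ornithogalum arrays, 0.995 between the vehicle arrays and 0.947 to 0.961 between groups. The epithelial markers KRT8, KRT18 and EPCAM were bright on all 4 arrays, between 9.34 and 10.6. CDH1 was dimmer, between 5.57 and 6.13, with a difference of -0.33 (limma adjusted p = 0.216). Of 7 measured epithelial markers KRT19 fell 2.63-fold and CLDN7 1.69-fold, and 0 rose. The median difference of the 7 was -0.14. In 4 of them, CDH1 included, both ornithogalum arrays lay below both vehicle arrays, against 30.2% of all named clusters, and in 1 above. CLDN4 had a difference of 0.51, with both ornithogalum arrays above both vehicle arrays (limma adjusted p = 0.134), and was the 1 further marker with an unadjusted p under 0.05. EPCAM had a difference of 0.21 with overlapping arrays (limma adjusted p = 0.47). Of 8 fibroblast, 7 leukocyte and 6 endothelial markers 0 passed limma's adjusted threshold, against 19.2% of all named clusters. None had an unadjusted p under 0.05, against 33.8%, with smallest unadjusted limma p-values of 0.107, 0.0574 and 0.0934. Of these markers 7, 6 and 6, respectively, had a mean value under 4.64, the median of named clusters, so the lack of calls says little about them. The leukocyte gene PTPRC lay between 1.44 and 1.74 on the 4 arrays, whereas LYZ, which gastric epithelium also makes, lay between 11.7 and 11.8. The mean log2 value over the fibroblast list was 3.55 and 3.33 on the ornithogalum arrays against 3.33 and 3.30 on the vehicle arrays, over the leukocyte list 4.30 and 4.28 against 4.20 and 4.20, and over the endothelial list 3.04 and 3.12 against 2.90 and 2.999. The leukocyte mean is raised by LYZ, and the next brightest gene of that list, CD14, lay between 3.94 and 4.27. The part of these markers in the results was not tested.

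**Figure D1:**
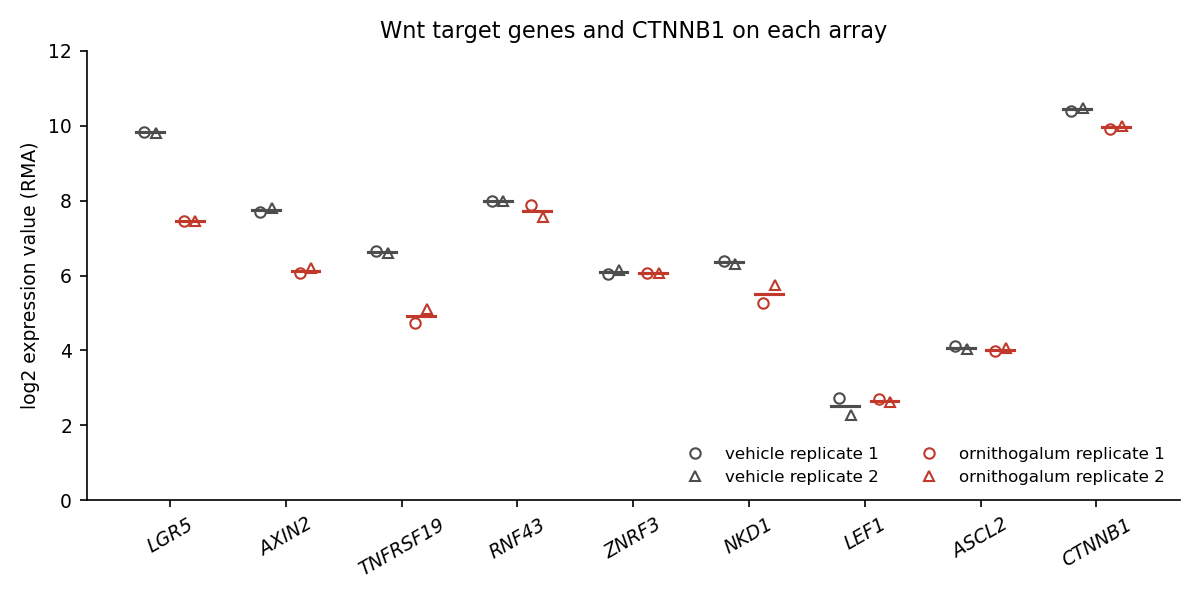
Log2 expression value (vertical axis) of the 9 measured genes on each of the 4 arrays; circles are replicate 1, triangles replicate 2, and bars the mean of the 2 arrays in a group. LGR5 shows the widest separation between vehicle (9.84 and 9.81) and ornithogalum (7.47 and 7.45), while the arrays of ZNRF3, LEF1 and ASCL2 overlap.

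The largest differences were those of LGR5 and TNFRSF19, which encode receptors. LGR5 (cluster 7957140), on chromosome 12 (71439129 to 71586310, GRCh38.p14), encodes a receptor for R-spondins, secreted proteins that strengthen Wnt signals. Its 2 ornithogalum arrays read 7.47 and 7.45 in log2, and its 2 vehicle arrays 9.84 and 9.81. Both treated arrays were thus below both controls, with replicates of a group lying closer together than 0.04. The level fell 5.17-fold, a difference of -2.37 (SE 0.11, 95% interval -2.65 to -2.09, limma adjusted p = 0.00336, n = 2 per group), and only 31 of the 21214 named clusters had a more negative difference. In these bulk samples fewer cells that make a transcript and less transcript per cell cannot be told apart.

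TNFRSF19 (cluster 7968015), on chromosome 13 (23570412 to 23676093), encodes TROY, a member of the tumour necrosis factor receptor family that is made in LGR5-positive stem cells. Its log2 value was 4.73 and 5.10 with ornithogalum and 6.65 and 6.60 with vehicle. The groups did not overlap, and the treated arrays differed more from each other than the control arrays did. TNFRSF19 fell 3.27-fold (difference -1.71, SE 0.16, 95% interval -2.12 to -1.30, limma adjusted p = 0.00463). Its lower treated value was close to 4.64, the median of named clusters, and no detection call was given.

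Promoter sequence was looked up because several of the genes fell together. The RefSeq table held 8 start sites of 5 of the 10 genes: TNFRSF19, RNF43, TCF7, LEF1 and CTNNB1. The 250 bases before each start were searched on both strands for the core recognised by TCF and LEF factors in 4 spellings, CTTTGAA or CTTTGAT or CTTTGTA or CTTTGTT. They differ only in their last bases, so at most 1 of them can match at a given position and strand. A match was present in 1 of the 8 windows, that of the second TCF7 start, 50 bases before it, and in 4199 of all 35116 windows of the table (12%). No match says only that these letters are not in the window. The windows of the first TNFRSF19 start, at chr13:23570162-23570411, and of the second, at chr13:23579110-23579359 (both plus strand, GRCh38.p14, from RefSeq), are shown because TNFRSF19 had the largest fall among the genes with an entry; they are in lower case, 5′ to 3′, since neither held the core.
TNFRSF19 start 1: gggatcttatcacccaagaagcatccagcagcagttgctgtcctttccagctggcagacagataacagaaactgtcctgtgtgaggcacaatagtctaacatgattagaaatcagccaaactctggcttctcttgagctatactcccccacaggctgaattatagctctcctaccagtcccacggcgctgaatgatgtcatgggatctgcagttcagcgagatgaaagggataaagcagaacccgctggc
TNFRSF19 start 2: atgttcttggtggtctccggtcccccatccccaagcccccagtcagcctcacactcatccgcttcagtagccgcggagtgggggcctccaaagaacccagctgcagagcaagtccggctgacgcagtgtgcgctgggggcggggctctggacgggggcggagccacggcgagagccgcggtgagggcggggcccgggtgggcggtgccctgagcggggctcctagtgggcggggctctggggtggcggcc
G and C made up 49.6% of the first TNFRSF19 window and 72.4% of the second, against 57.2% over all windows of the table. The single TNFRSF19 cluster gives 1 value for the gene and does not tell these starts apart.

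The intracellular feedback genes AXIN2 and NKD1 also fell. AXIN2 (cluster 8017718), on chromosome 17 (65528563 to 65561648), encodes a scaffold of the destruction complex and is a widely used readout of beta-catenin activity. It was at 6.07 and 6.20 with ornithogalum, as log2 values, and at 7.70 and 7.79 with vehicle. The nearest treated and control values were 1.51 apart, and the fall was 3.06-fold (difference -1.61, SE 0.12, 95% interval -1.92 to -1.31, limma adjusted p = 0.00336).

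NKD1 (cluster 7995525), on chromosome 16 (50548396 to 50649249), encodes a protein that binds Dishevelled and dampens the Wnt signal. Its values were 5.27 and 5.76 with ornithogalum and 6.39 and 6.31 with vehicle. The treated pair was the most widely spread of any of the 9 genes, with an SD of 0.34, yet both of its values were below the controls. NKD1 fell 1.79-fold (difference -0.84, SE 0.19, 95% interval -1.32 to -0.35, limma adjusted p = 0.0399). Against the vehicle mean, the first ornithogalum array differed by -1.08 and the second by -0.59. With all 33297 clusters of the table tested together, NKD1 no longer passed (adjusted p = 0.0936).

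RNF43 and ZNRF3 encode paired membrane ubiquitin ligases that remove Frizzled receptors from the cell surface, the step that R-spondin bound to LGR5 blocks. RNF43 (cluster 8016994), on chromosome 17 (58352500 to 58417534), was at 7.88 and 7.57 with ornithogalum and at 7.996 and 7.998 with vehicle. Both treated values were below both controls, by a gap of 0.11, but the difference of -0.27 (SE 0.15, 95% interval -0.65 to 0.10) did not pass, with a limma adjusted p = 0.264. It was -0.43 without ornithogalum replicate 1 (adjusted p = 0.0628) and -0.11 without ornithogalum replicate 2 (adjusted p = 0.464). ZNRF3 (cluster 8072160), on chromosome 22 (28883572 to 29057488), was at 6.06 and 6.08 with ornithogalum and at 6.03 and 6.15 with vehicle. Its groups overlapped, with a difference of -0.02 (95% interval -0.32 to 0.27, limma adjusted p = 0.901). The sign of this small ZNRF3 difference turned under median centring, quantile normalization and cyclic loess, and without vehicle replicate 2. A 2-fold change, a difference of 1 in size, lay outside both intervals.

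Neither transcription factor gene passed. LEF1 (cluster 8102232), on chromosome 4 (108047548 to 108168932), encodes a DNA-binding partner of beta-catenin. It was at 2.70 and 2.61 with ornithogalum and at 2.73 and 2.29 with vehicle, so that the groups overlapped, and the difference was 0.15 (95% interval -0.31 to 0.61, limma adjusted p = 0.609). ASCL2 (cluster 7945730), on chromosome 11 (2268498 to 2270588), encodes a helix-loop-helix factor of intestinal stem cells. Its values of 3.98 and 4.06 with ornithogalum and 4.11 and 4.03 with vehicle overlapped as well, with a difference of -0.05 (95% interval -0.34 to 0.25, limma adjusted p = 0.806). Both clusters had mean values under 4.64, the median of named clusters, and no detection call was given, so a low level could not be told from background. The LEF1 difference turned negative under quantile normalization and cyclic loess and without vehicle replicate 2, and the ASCL2 difference turned positive under median centring and quantile normalization.

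CTNNB1 (cluster 8079021), on chromosome 3 (41199505 to 41240443), is the source of the beta-catenin transcript. It was at 9.92 and 9.99 with ornithogalum and at 10.40 and 10.48 with vehicle. The groups were 0.42 apart at their closest, and the SD was 0.05 in each group. CTNNB1 fell 1.40-fold (difference -0.49, SE 0.11, 95% interval -0.78 to -0.20, limma adjusted p = 0.0428). The call was lost without the first ornithogalum array (adjusted p = 0.0615), after median centring (0.121, difference -0.33) and with all clusters of the table tested (0.0957).

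The 250 bases before the CTNNB1 start, at chr3:41199255-41199504 (plus strand, GRCh38.p14, from RefSeq), are shown as those of the other gene that fell and had an entry. They were searched in the same way as the TNFRSF19 windows, held no core and are likewise in lower case. G and C made up 74.4% of them.
CTNNB1: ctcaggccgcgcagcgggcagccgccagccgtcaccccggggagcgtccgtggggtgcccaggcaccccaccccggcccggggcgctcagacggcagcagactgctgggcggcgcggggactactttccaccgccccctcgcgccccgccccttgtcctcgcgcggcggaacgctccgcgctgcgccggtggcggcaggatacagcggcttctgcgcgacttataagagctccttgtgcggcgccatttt

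**Figure D2:**
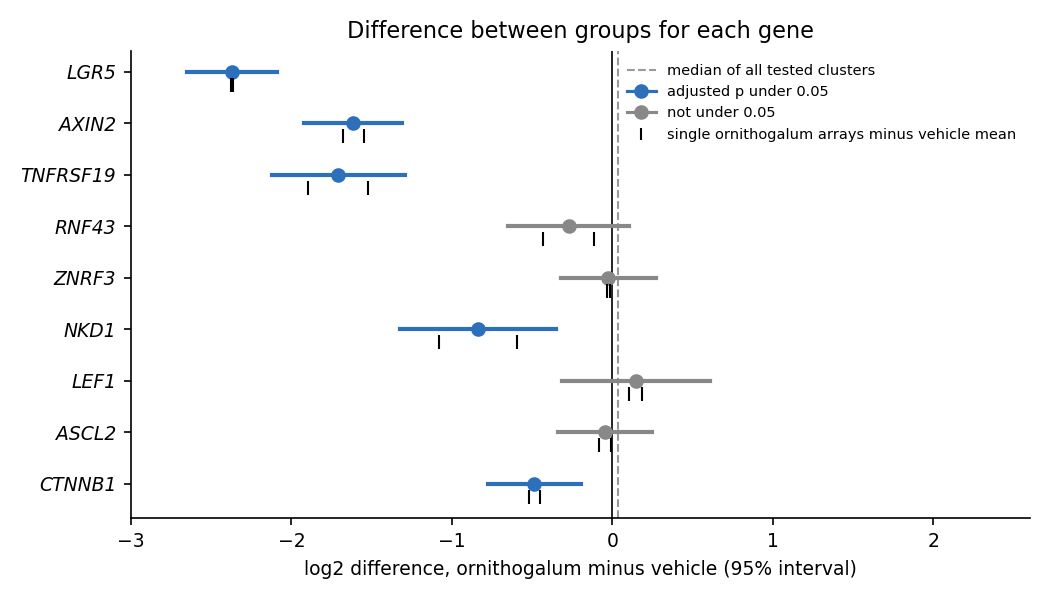
Difference in log2 value, ornithogalum minus vehicle (horizontal axis), for the 9 measured genes, with limma's 95% interval; short vertical ticks give each ornithogalum array minus the vehicle mean. LGR5, AXIN2, TNFRSF19, NKD1 and CTNNB1 (blue) passed the adjusted threshold, and the dashed line at 0.04 is the median of all named clusters.

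The genes thus differed among themselves in the size of their change. The 95% interval of LGR5 lay wholly below those of AXIN2 and NKD1 and overlapped that of TNFRSF19 at its edge. Differences between genes were not tested. The other measured genes had intervals that either included 0 or, for CTNNB1, ended at -0.20.

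Whether the genes passed hung on having both vehicle arrays. The root of the mean variance over named clusters was 0.258 within ornithogalum and 0.140 within vehicle, and the fit pools both groups. With 1 vehicle array left out, the spread came from the more variable ornithogalum pair alone. Without vehicle replicate 1 or without vehicle replicate 2, limma called 0 of the 9 genes and 0 of all named clusters, while 4 of the 9 genes and 4192 or 3986 clusters had an unadjusted p under 0.05. The differences of LGR5, AXIN2 and TNFRSF19 moved by at most 0.05: without vehicle replicate 1 or 2, respectively, LGR5 was at -2.35 and -2.39 (adjusted p = 0.0605 and 0.0612), AXIN2 at -1.66 and -1.57, and TNFRSF19 at -1.68 and -1.74. Those of LEF1 (0.37 and -0.077) and ZNRF3 (-0.084 and 0.034) changed sign without vehicle replicate 2. In all 13 alternatives LGR5, AXIN2, TNFRSF19, NKD1, RNF43 and CTNNB1 kept a negative difference. LGR5, AXIN2 and TNFRSF19 passed in 11 of the 13, NKD1 in 10, CTNNB1 in 7 and RNF43 in 0.

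**Figure D3:**
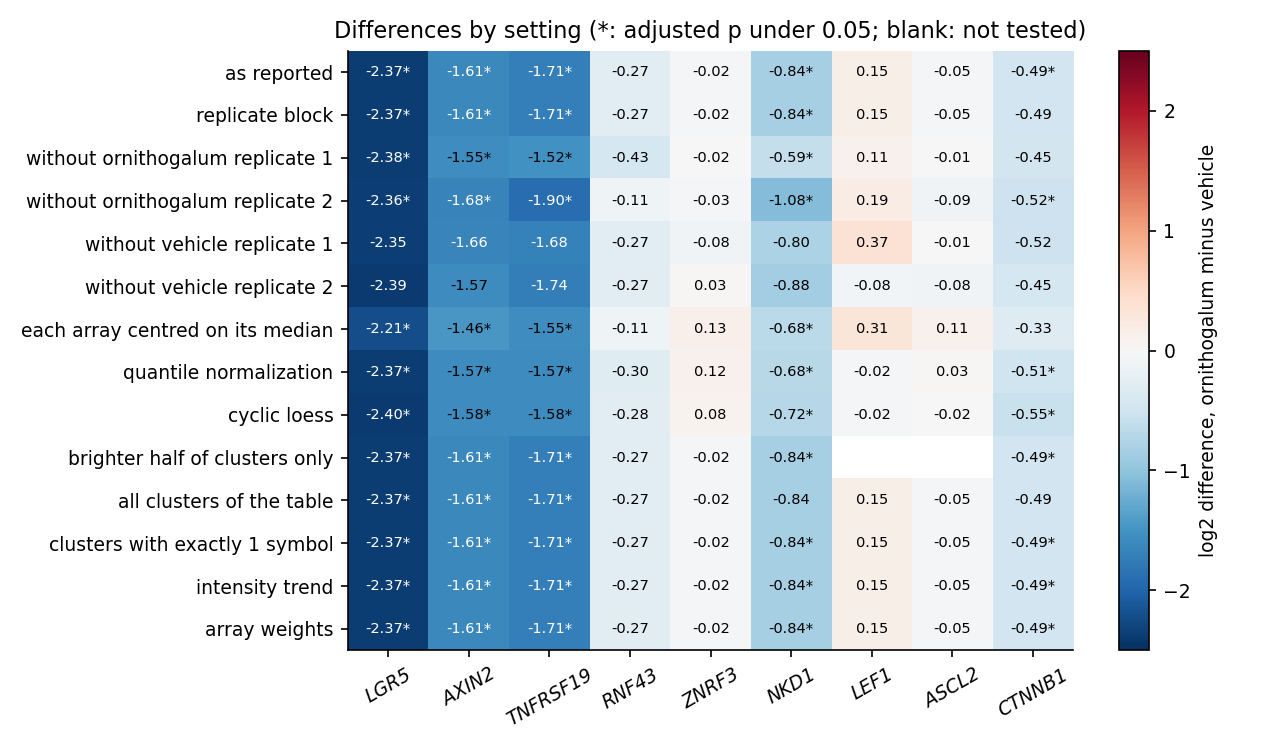
Log2 difference, ornithogalum minus vehicle, of each gene (columns) under the reported setting and the 13 alternatives (lines), on a colour scale from blue (lower) to red (higher); an asterisk marks an adjusted p under 0.05. LGR5 stayed between -2.40 and -2.21 in every setting and lost its asterisk without either vehicle array; LEF1 and ASCL2 are blank where dim clusters were left out.

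The rest of the pathway did not move in one direction. Of 117 further genes listed by role, 114 were measured, and 17 fell (14.9%) and 13 rose (11.4%), against 12.6% and 6.57% of all named clusters. Their median difference was 0.06, near the 0.04 of all named clusters. The split depended on scaling. With arrays centred on their medians, the median difference of all named clusters was 0.20, and 1898 of the 21214 fell and 2238 rose. In that setting 9 of the pathway genes fell and 20 rose. Without ornithogalum replicate 2, which raised the calls over all clusters from 4076 to 7058, 29 fell and 20 rose, and with all clusters of the table tested together 6 fell and 7 rose. Without either vehicle array 0 passed, with 25 at an unadjusted p under 0.05.

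Ligands and their secretion factors had 0 of 24 measured genes past the adjusted limma threshold, with a median of 0.11, while 4 had an unadjusted p under 0.05, each with a positive difference, a smaller share than the 33.8% of all named clusters. WNT16, a ligand, had the smallest p, with a difference of 0.45 (adjusted p = 0.0592), but its 4 values were all under 4.64, the median of named clusters. In all, 17 of the 24 ligand genes had a mean value under that median. The part of dim levels in the small share was not tested. Without ornithogalum replicate 2 the ligand median was 0.03 and more ligand genes passed, as did more of all named clusters.

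Among 16 receptor genes 2 fell and 1 rose, near the shares of 12.6% and 6.57% among all named clusters. Their median of -0.01 turned positive under each rescaling. Only 4 of the 16 had a mean value under 4.64, the median of named clusters, and brighter clusters, fitted alone, passed more often (4832 of 10607). LGR4, the broadly expressed relative of LGR5 and likewise a receptor for R-spondins, was at 6.62 and 6.29 with ornithogalum and at 7.87 and 7.78 with vehicle. LGR4 fell 2.58-fold (difference -1.37, SE 0.15, limma adjusted p = 0.00615). FZD5, a Frizzled receptor, fell 1.52-fold (adjusted p = 0.0379), and LRP6, the Wnt co-receptor, rose 1.55-fold (adjusted p = 0.0213). FZD5 did not pass without ornithogalum replicate 1 (adjusted p = 0.0516) or after median centring (0.0629), and with all clusters of the table tested neither FZD5 (0.0885) nor LRP6 (0.0574) passed. Without ornithogalum replicate 2 the receptor median was -0.05 and more receptor genes passed, as did more of all named clusters.

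In the destruction complex and cytoplasmic relay 4 genes fell and 4 rose of 19, against 12.6% lower and 6.57% higher among all named clusters. The median of -0.02 also turned positive under each rescaling. Only 3 of the 19 genes had a mean value under 4.64, the median of named clusters, and brighter clusters, fitted alone, passed more often (4832 of 10607). TNKS2, a tankyrase that marks axins for degradation, rose 2.23-fold from 7.32 and 7.28 with vehicle to 8.41 and 8.51 with ornithogalum (limma adjusted p = 0.00492). The paralogous kinases that phosphorylate beta-catenin went opposite ways: GSK3B fell 1.57-fold (adjusted p = 0.02) and GSK3A rose 1.501-fold (adjusted p = 0.0234). PPP2R5A, a regulatory subunit of protein phosphatase 2A, fell 1.57-fold (adjusted p = 0.0192). With all clusters of the table tested GSK3B (adjusted p = 0.055), GSK3A (0.0612) and PPP2R5A (0.0532) did not pass, and of the whole list 0 fell and 1, TNKS2, rose. In that setting 1677 of 33297 clusters fell and 967 rose. Without ornithogalum replicate 1 the median of this list was 0.01. Fewer of its genes fell, while slightly more of all named clusters did.

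Nuclear cofactors had the lowest median of the roles, -0.25, negative under each rescaling too. Of the 18 genes 5 were lower and 3 higher, against 12.6% and 6.57% of all named clusters. Only 3 of the 18 had a mean value under 4.64, the median of named clusters. Of the 10607 clusters at or above that level, fitted alone, 3021 passed as lower and 1811 as higher, with a median difference of -0.07. EP300, a histone acetyltransferase and beta-catenin coactivator, rose 2.33-fold from 6.13 and 5.95 to 7.32 and 7.20 (limma adjusted p = 0.00567). The adaptor genes BCL9 and BCL9L, whose proteins link beta-catenin to Pygopus, went opposite ways. BCL9 fell 2.11-fold, from 6.07 and 6.12 to 4.89 and 5.15 (adjusted p = 0.00832), and BCL9L rose 2.06-fold, from 6.34 and 6.03 to 7.21 and 7.25 (adjusted p = 0.0109). CTBP1, a corepressor, fell 2.09-fold (adjusted p = 0.0108). TCF7L2, the main TCF factor of intestinal epithelium, was chosen after its values were seen and fell 1.57-fold (adjusted p = 0.0195), but it did not pass after median centring (0.0562) or with all clusters of the table tested (0.054).

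Secreted and membrane antagonists had 1 lower and 0 higher of 18, against 12.6% and 6.57% of all named clusters. Their median was 0.09, and 1 gene with a positive difference had an unadjusted limma p under 0.05. Of the 18 antagonist genes, 12 had a mean value under 4.64, the median of named clusters. KREMEN1, a receptor for Dickkopf proteins, fell 1.46-fold (limma adjusted p = 0.0332), and it did not pass after median centring, quantile normalization or cyclic loess (adjusted p 0.0539 to 0.0882), or with all clusters of the table tested (0.0798). Without ornithogalum replicate 2 the antagonist median was 0.02 and more antagonist genes passed, as did more of all named clusters.

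Other target genes of the pathway went both ways, 5 lower and 5 higher of 19, against 12.6% and 6.57% of all named clusters. Their median was 0.05. Only 6 of the 19 had a mean value under 4.64, the median of named clusters, and brighter clusters, fitted alone, passed more often (4832 of 10607). MYC, a growth-promoting transcription factor, was at 8.24 and 8.22 with ornithogalum and at 6.91 and 7.08 with vehicle, a rise of 2.36-fold (limma adjusted p = 0.00496). FOSL1, an AP-1 subunit, rose 2.94-fold from 6.55 and 6.34 to 8.16 and 7.84 (adjusted p = 0.00558). SLC12A2, an ion cotransporter of secretory epithelium, fell 3.96-fold (adjusted p = 0.00336). BMP4, a secreted growth factor, fell from 5.29 and 5.34 with vehicle to 3.57 and 4.09 with ornithogalum (adjusted p = 0.00928). The treated BMP4 values were under 4.64, the median of named clusters, which is not a detection limit. No detection call was given, so a low level could not be told from background, and no fold is given. Looked up after their values were seen, the cell cycle gene CCND1 rose 1.72-fold (adjusted p = 0.0109), the transcription factor gene SOX9 rose 1.59-fold (adjusted p = 0.0307) and SP5, a transcription factor gene induced by beta-catenin, fell 1.504-fold (adjusted p = 0.0234). SP5 did not pass after median centring (adjusted p = 0.0683), quantile normalization (0.0691) or with all clusters of the table tested (0.0613), nor did SOX9 in the last (0.0765). After median centring 2 genes of this list fell and 6 rose, while 1898 of the 21214 named clusters fell and 2238 rose.

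**Figure D4:**
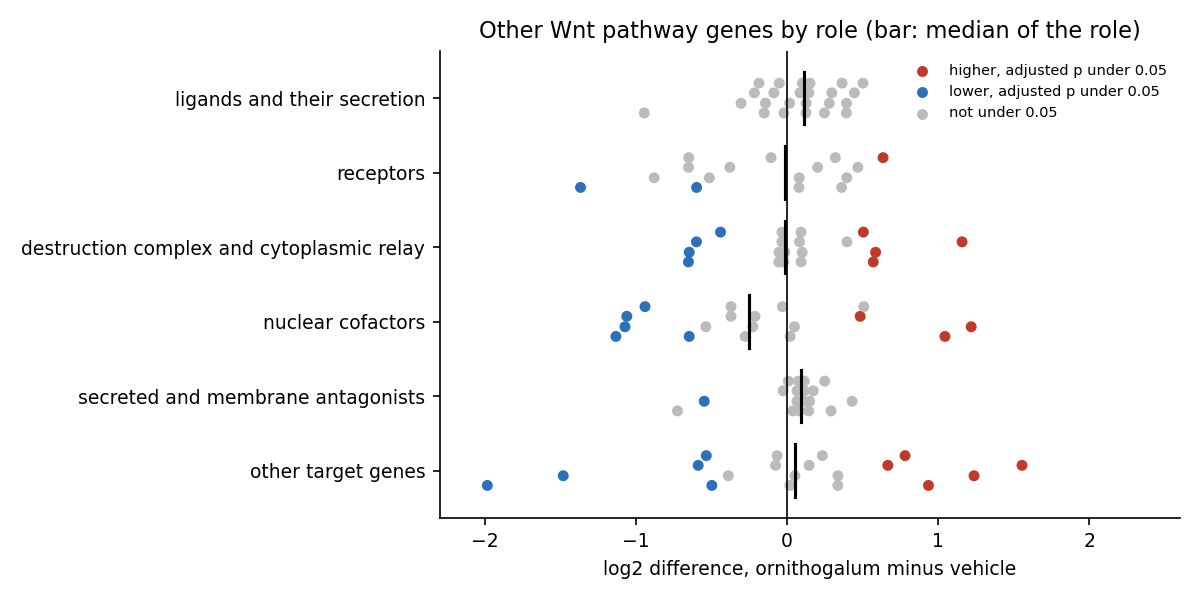
Log2 difference, ornithogalum minus vehicle (horizontal axis), of 114 further Wnt pathway genes grouped by role; each point is a gene, spread vertically only for legibility, and the black bar is the role's median. Points past the adjusted threshold lie on both sides of 0 among the receptor, cytoplasmic, nuclear and other target genes, while 0 of 24 ligand genes passed.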

How the data were processed

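Total RNA of AGS cells was hybridised to 4 arrays, 2 per group. The authors deposited log2 values; the submitters' processing notes name RMA (robust multi-array average) and, as software, Affymetrix Expression Console 1.1, and no background or scaling setting is named in the sources used here. The arrays' number limits the precision.

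Clusters were named from the platform annotation of 2016, with symbols updated through RefSeq gene numbers: 19460 had 1 symbol, 1754 several and 12083 none. The 21214 named clusters were fitted in R 4.3.3 by limma 3.58.1 (lmFit, then eBayes, across all genes, group as the only term, no filter on dim clusters, two-sided), and p-values were adjusted by Benjamini-Hochberg over all of them. The code was tested on simulated data. For pathway and marker lists, a gene was represented by its single-symbol cluster of highest mean. All 10 genes were to be named, from each list the called genes of smallest p, at most 4, or the gene of smallest p where none was called, and at most 2 per marker list; further markers were picked with their values known. The genes and lists were chosen with earlier results of these data known, among them the falls of LGR5, AXIN2, TNFRSF19 and SLC12A2 and the rise of MYC.

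Alternatives were a replicate block, each array left out in turn, 3 rescalings, other sets of clusters, an intensity trend and array weights. The labels number the replicates in both groups but state no pairing.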

Additional observations from a re-analysis of the deposited data

How the results depend on the processing

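Over the 13 alternatives the number of the 9 Wnt genes that fell was 4 or 5 apart from 3 settings, and 0 rose in each. It was 3 with all clusters of the table tested together, where more clusters share the adjustment, and it ranged from 0 to 5 when 1 array was left out, with 0 without either vehicle array. The difference of ZNRF3 turned to 0.13 after median centring, 0.12 after quantile normalization and 0.080 after cyclic loess, and ranged from -0.084 to 0.034 with 1 array left out. That of LEF1 turned to -0.023 after quantile normalization and -0.020 after cyclic loess and ranged from -0.077 to 0.37, and that of ASCL2 turned to 0.11 after median centring and 0.034 after quantile normalization. After median centring 1898 of 21214 clusters fell and 2238 rose, and with all clusters tested 1677 of 33297 fell and 967 rose. Of the 114 further pathway genes, 9 fell and 20 rose in the former and 6 fell and 7 rose in the latter. With 1 array left out the number that fell ranged from 0 to 29 and the number that rose from 0 to 20, the highest without ornithogalum replicate 2 and 0 without either vehicle array, where 25 genes had an unadjusted limma p under 0.05. Where a group was left with 1 array, it was assumed to vary like the other pair. With the replicate number as a block 3302 clusters passed instead of 4076, 4 of the 9 genes fell without CTNNB1 (adjusted p = 0.0854), and 11 pathway genes fell and 9 rose, while among the genes named FZD5, GSK3A, KREMEN1 and SP5 did not pass (0.0524 to 0.0683). Deviations of same-numbered arrays from their group means correlated at -0.0585 across clusters, which are not independent replicates. With 2 arrays per group this value cannot tell whether same-numbered arrays shared a culture or day. Causes of these changes were not tested. Without a background or detection value, changes in dim genes such as LEF1 and ASCL2 could not be told from background.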
